A study of Homo sapiens with 9 samples.

Results

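The genes examined were 10 members of the HSP70 chaperone system, HSPA1A, HSPA1B, HSPA1L, HSPA8, HSPA13 and HSPA14 of the HSP70 family, HSPA4, HSPA4L and HSPH1 of the HSP110 family, and the co-chaperone BAG3. They were 10 of the 19930 genes with values in the table. All 10 were found by symbol. They were chosen by name with known differences of HSPA1A, HSPA1B and other heat-shock genes between these same libraries in view, so their levels in these comparisons are a description and carry no test. The cells were MDA-MB-453, an established human breast cancer line, collected 48 h after transfection with Lipofectamine 2000. The 9 libraries formed 3 groups of 3. X453_NC was labelled as the control, and X453_1 and X453_2 were both labelled as a knockdown of Linc00673, a long noncoding RNA. The labels do not say which siRNA each number stands for, nor that the libraries of a group came from separate cultures. All values are FPKM, the fragments per kilobase of transcript and per mapped fragment of the library, counted in units of 1000000, so levels can be compared between genes per length.

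HSP70 proteins bind unfolded stretches of other proteins and release them in a cycle driven by ATP. J-domain proteins bring clients to HSP70, while HSP110 proteins and BAG proteins act as nucleotide exchange factors that reopen the cycle. In most human cells HSPA8 is made constitutively, and HSPA1A and HSPA1B are made at low levels until heat or misfolded protein activates the transcription factor HSF1, which binds heat-shock elements built from alternating GAA and TTC units.

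Because heat-shock elements are the best known control sequence of this family, the promoter windows were read first. For each of the genes a single RefSeq transcription start was used (GRCh38.p14), with the window from 250 bases before to 50 bases after it. Of the 10 genes, 9 had a window. The letters searched were GAANNTTC and TTCNNGAA, which are 2 adjoining inverted units and read the same on both strands. They were present in 4 of the 9 windows, those of HSPA1A, HSPA1B, HSPA1L and HSPA8, and in 13.5% of all 35116 windows. The longer forms with 3 alternating units, GAANNTTCNNGAA and TTCNNGAANNTTC, were present in HSPA8 only among the 9 and in 0.490% of all windows. The windows of HSPA4, HSPA4L, HSPH1, HSPA13 and BAG3 held neither. Only exact letters were searched, so elements with a mismatch, outside the window or at another start would be missed. The windows of the 2 inducible genes, of HSPA8, and of HSPH1 as the HSP110 gene with the largest difference between groups, follow 5′ to 3′ with the matched letters in capitals. They lie at chr6:31815293-31815592 (plus strand), chr6:31827488-31827787 (plus strand), chr11:123062087-123062386 (minus strand) and chr13:31162339-31162638 (minus strand).
HSPA1A: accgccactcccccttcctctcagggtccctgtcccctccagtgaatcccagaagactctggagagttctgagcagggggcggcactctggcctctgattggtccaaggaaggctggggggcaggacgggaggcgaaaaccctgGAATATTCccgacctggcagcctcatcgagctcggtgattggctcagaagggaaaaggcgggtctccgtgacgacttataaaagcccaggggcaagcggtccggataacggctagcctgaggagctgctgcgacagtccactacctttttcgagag
HSPA1B: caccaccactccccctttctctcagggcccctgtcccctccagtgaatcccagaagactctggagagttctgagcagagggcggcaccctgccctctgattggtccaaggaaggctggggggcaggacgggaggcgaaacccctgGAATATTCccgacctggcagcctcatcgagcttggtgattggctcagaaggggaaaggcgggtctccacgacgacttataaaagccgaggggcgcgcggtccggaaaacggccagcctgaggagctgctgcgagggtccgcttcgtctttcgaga
HSPA8: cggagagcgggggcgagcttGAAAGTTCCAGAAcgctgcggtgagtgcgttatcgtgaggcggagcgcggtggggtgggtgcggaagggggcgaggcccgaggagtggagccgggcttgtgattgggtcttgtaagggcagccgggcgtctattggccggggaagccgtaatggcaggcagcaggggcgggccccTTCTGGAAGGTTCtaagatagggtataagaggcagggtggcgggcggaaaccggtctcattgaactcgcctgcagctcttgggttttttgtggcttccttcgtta
HSPH1: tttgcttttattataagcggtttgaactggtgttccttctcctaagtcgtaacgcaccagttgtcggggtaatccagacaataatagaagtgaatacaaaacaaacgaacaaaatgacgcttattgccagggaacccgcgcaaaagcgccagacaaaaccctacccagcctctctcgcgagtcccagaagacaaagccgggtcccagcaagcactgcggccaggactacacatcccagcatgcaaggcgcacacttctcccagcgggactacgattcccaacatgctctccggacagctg
HSPA1A and HSPA1B each held GAATATTC, starting 106 and 105 bases before the transcription start. Their windows were identical at 277 of 300 bases. HSPA1L starts 260 bases from HSPA1A in the opposite direction, the windows of the pair share 241 bases, and the element in the HSPA1L window is that of HSPA1A. HSPA8 held 4 matches, which overlapped in pairs and joined into 2 longer elements, starting 230 and 55 bases before the start. A match is a description of these letters and says nothing of what bound there.

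The number of fragments per library was estimated from the smallest steps that FPKM took in lowly expressed genes. In units of 1000000 fragments it was 26.1 to 27.3 in X453_NC, 24.35 to 26.3 in X453_1 and 23.15 to 24.3 in X453_2. FPKM values on the log2 scale correlated between libraries of a group at 0.994 to 0.996. Of the markers known for MDA-MB-453, KRT8 and KRT18 were abundant, and ERBB2 ranged from 11.8 to 17.8 FPKM. FOXA1 did not exceed 0.04 FPKM in any library and SPDEF stayed between 0.57 and 1.24 FPKM, so these defining markers of the line were absent or near 0. ESR1, listed as low or absent in the line, did not exceed 0.02 FPKM, and PGR, listed likewise, had no values. Of 6 markers of other cell types in the table, PTPRC, COL3A1, PECAM1 and DCN were below 1 FPKM in every library. COL1A1 ranged from 3.49 to 7.08 FPKM. The summed level of the 6 was 36.8 to 38.3 FPKM in X453_NC, 51.9 to 55.5 FPKM in X453_1 and 61.0 to 66.3 FPKM in X453_2, and lay mostly in CD68, which ranged from 32.8 to 59.3 FPKM. CD68 is a lysosomal protein of macrophages that epithelial cells also express. The part of this marker in the results below was not tested.

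The inducible HSP70 genes were far higher in both knockdown groups than in the control, and far higher in X453_2 than in X453_1. HSPA1A and HSPA1B encode the same cytosolic chaperone, the classical HSP70 of the heat-shock response. They lie side by side at chr6:31783291-31785719 and chr6:31795512-31798031 (plus strand, GRCh37). In the order no suffix, r1 and r2, HSPA1B was at 24.4, 23.9 and 25.1 FPKM in X453_NC. It was at 110.7, 87.9 and 74.4 FPKM in X453_1 and at 553.5, 639.15 and 579.7 FPKM in X453_2. The 3 groups did not overlap, and the spread was widest in X453_1, with a coefficient of variation of 20.1% against 2.35% in X453_NC and 7.43% in X453_2. HSPA1A was at 9.45, 7.48 and 8.69 FPKM in X453_NC, at 36.4, 29.9 and 32.5 FPKM in X453_1, and at 175.85, 181.49 and 172.14 FPKM in X453_2. Its groups did not overlap either. The log2 fold change of HSPA1B, on the scale of log2(FPKM + 1), was 1.83 ± 0.12 (SE) for X453_1 and 4.54 ± 0.12 for X453_2 against X453_NC, and that of HSPA1A was 1.83 ± 0.08 and 4.22 ± 0.08. In bulk RNA, a change in the number of cells that express a gene and a change in the RNA of each cell cannot be told apart.

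**Figure D1:**
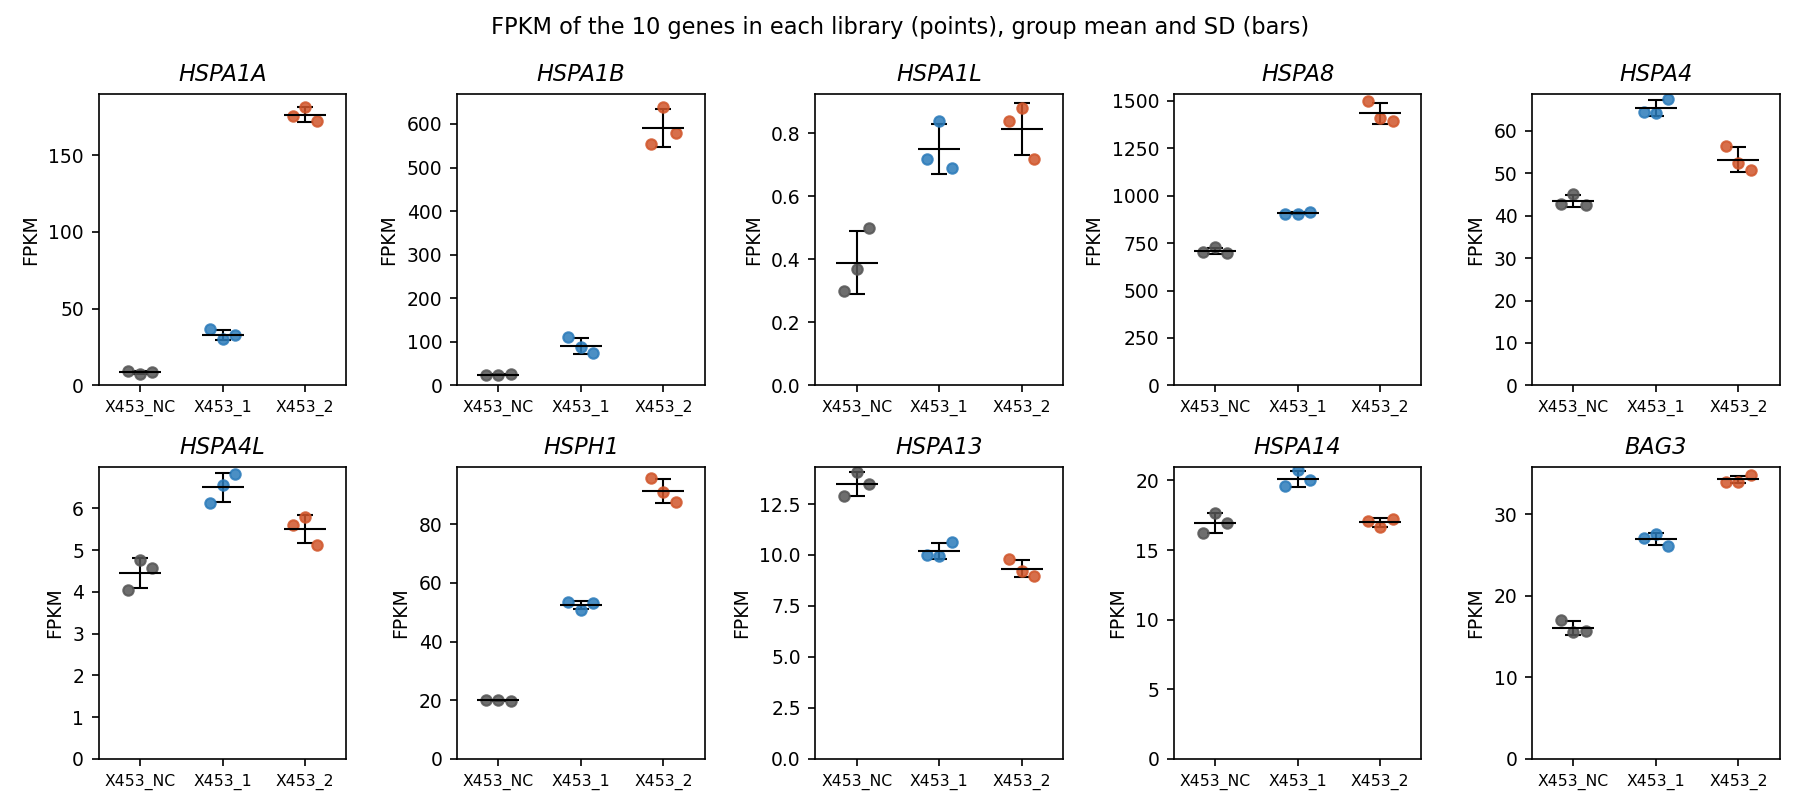
FPKM (y axes, from 0) of each of the 10 genes in the 3 libraries of X453_NC, X453_1 and X453_2 (points), with the group mean and SD (n = 3). HSPA1A, HSPA1B, HSPA8, HSPH1 and BAG3 were lowest in X453_NC and highest in X453_2 without overlap, HSPA4, HSPA4L and HSPA14 were highest in X453_1, and HSPA13 was lowest in X453_2.

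HSPA1A and HSPA1B are near-identical copies, so how fragments were split between them is uncertain. Of all stretches of 50 bases in the GENCODE v29 transcripts of HSPA1A, 71.3% also occurred in HSPA1B, and 67.3% of the stretches of 100 bases did. HSPA1L shared 2.46% of the 50-base stretches of HSPA1A, and these 3 genes were the only ones among the 10 with a shared 50-base stretch. Summed, HSPA1A and HSPA1B had 33.0 ± 1.37 FPKM (SD, n = 3) in X453_NC, 123.9 ± 20.8 FPKM in X453_1 and 767.3 ± 47.6 FPKM in X453_2. The ratio of the means to the control was 3.76 for X453_1 and 23.2 for X453_2, and X453_2 was 6.19 times X453_1. HSPA1A made up 25.8 ± 2.07% of the sum in X453_NC, 26.8 ± 3.10% in X453_1 and 23.0 ± 1.01% in X453_2. The share in each knockdown group overlapped that of the control, and X453_2 lay below X453_1.

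The table also held 12 predicted genes without a symbol that its annotation names as HSP70 of the HSPA1, HSPA2, HSPA6 and HSPA8 kind. All 12 lay on 4 alternative haplotype sequences of the chromosome 6 region of HSPA1A and HSPA1B, and 0 lay within 20 kb of the pair on chromosome 6 itself. The highest in X453_2, BGI_novel_G002475, lay at 3294390 to 3295591 of the sequence chr6_cox_hap2. It was at 6.92, 6.37 and 6.63 FPKM in X453_NC, at 19.1, 11.2 and 7.44 FPKM in X453_1, and at 74.2, 94.0 and 90.4 FPKM in X453_2. Its X453_2 libraries stood apart from the other 6, and its X453_1 libraries were above the control. Among the 12, 7 reached the filter of a mean of 1 FPKM, and 5 were listed at 0 in every control library. Since the predicted loci differed in length, FPKM was multiplied by transcript length before summing. Some of them shared coordinates and nearly all values, so the sum may hold the same fragments more than 1 time. On that scale the predicted loci held 26.7 ± 1.79% of the total of predicted loci, HSPA1A and HSPA1B in X453_NC, 25.2 ± 0.91% in X453_1 and 25.3 ± 0.59% in X453_2, and the groups overlapped. With these loci added, the log2 fold change of the sum was 1.86 for X453_1 and 4.50 for X453_2, beside 1.87 and 4.50 without them. This addition was chosen after the data were seen.

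**Figure D2:**
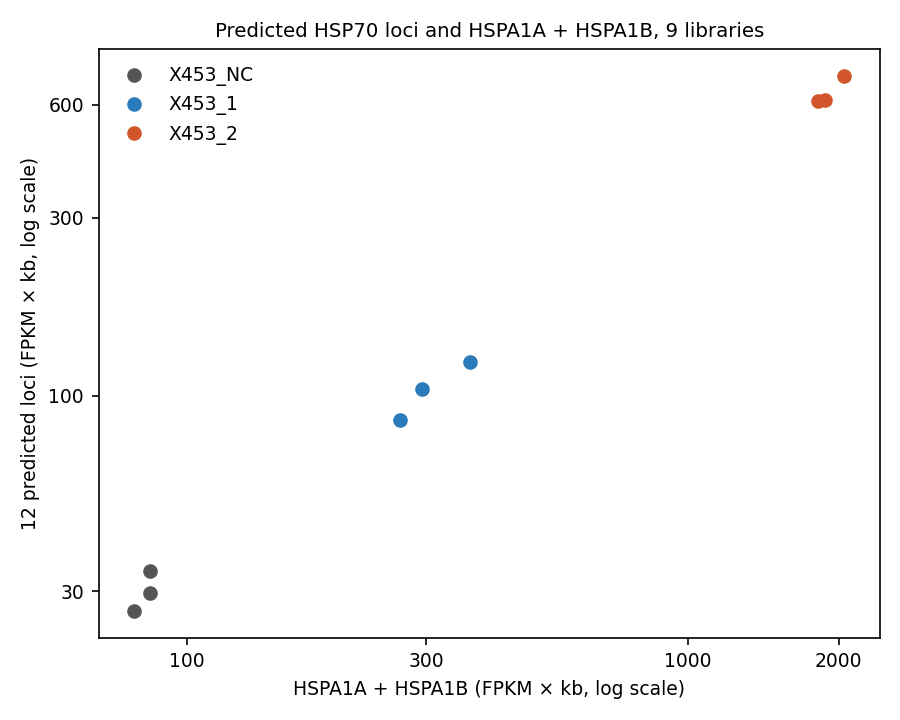
Level of the 12 predicted HSP70 loci (y axis) against HSPA1A plus HSPA1B (x axis), both as FPKM multiplied by transcript length in kilobases and on log scales, 1 point per library. The X453_NC libraries sit at 26.6 to 34.0 on the y axis, those of X453_1 at 86.0 to 123.2 and those of X453_2 at 614.8 to 717.1.

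HSPA8, the constitutive cytosolic HSP70, lies at chr11:122928200-122933043 (minus strand, GRCh37) and was the most abundant of the 10 genes in every group. It had 701.0, 728.3 and 696.1 FPKM in X453_NC, 905.7, 905.4 and 912.7 FPKM in X453_1, and 1498.65, 1410.2 and 1393.7 FPKM in X453_2. The groups did not overlap. Its log2 fold change was 0.36 ± 0.03 for X453_1, short of the 1.3-fold limit of a call (0.38), and 1.02 ± 0.03 for X453_2. HSPA1L, a testis HSP70 which starts beside HSPA1A in the opposite direction (chr6:31777396-31782835, minus strand), had at most 0.88 FPKM in any library and was below the filter of a mean of 1 FPKM. It had 0.30, 0.37 and 0.50 FPKM in X453_NC, 0.72, 0.84 and 0.69 FPKM in X453_1, and 0.84, 0.88 and 0.72 FPKM in X453_2, with both knockdown groups above the control and overlapping each other. These levels correspond to an estimated 20 to 33 fragments in the control libraries and 41 to 52 in the others.

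HSPA13 and HSPA14 did not follow the order of the inducible genes. HSPA13, a microsomal HSP70 relative (chr21:15743436-15755509, minus strand), was the only one of the 10 below the control. It had 12.9, 14.1 and 13.5 FPKM in X453_NC, 9.98, 9.96 and 10.7 FPKM in X453_1, and 9.78, 9.21 and 8.98 FPKM in X453_2. In the deposited FPKM both knockdown groups lay below the control without overlap, and X453_2 lay below X453_1. The log2 fold change of HSPA13 was -0.37 ± 0.05 for X453_1, just short of the limit, and -0.49 ± 0.05 for X453_2. With 0.1 FPKM added in place of 1, the value for X453_1 was -0.40, past the limit. Scaling the libraries by their median ratio put that for X453_2 at -0.39. Between X453_2 and X453_1 the log2 fold change of HSPA13 was -0.12 ± 0.05, and -0.02 with the libraries scaled by their median ratio. HSPA14, which works with a J-domain partner at the ribosome (chr10:14880159-14913740, plus strand), had 16.25, 17.7 and 16.9 FPKM in X453_NC, 19.57, 20.74 and 20.03 FPKM in X453_1, and 17.1, 16.6 and 17.2 FPKM in X453_2. In the deposited FPKM X453_1 stood above both other groups, which overlapped. The log2 fold change of HSPA14 was 0.23 ± 0.04 for X453_1 and 0.0033 ± 0.04 for X453_2. With the libraries scaled by their median ratio, X453_2 was at 0.10 against the control and at -0.13 against X453_1.

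The 3 HSP110 genes did not share a pattern. HSPH1 (chr13:31709111-31737109, minus strand) encodes the stress-inducible HSP110 of the cytosol, and it differed from the control more than any gene of the 10 other than HSPA1A and HSPA1B. It had 20.11, 19.99 and 19.87 FPKM in X453_NC, 53.5, 50.9 and 53.1 FPKM in X453_1, and 95.8, 91.0 and 87.7 FPKM in X453_2. Its groups were far apart for their spread, which was 0.60% of the mean in X453_NC, 2.65% in X453_1 and 4.43% in X453_2. The log2 fold change was 1.35 ± 0.04 for X453_1 and 2.14 ± 0.04 for X453_2.

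HSPA4 (chr5:132387662-132440709, plus strand) and HSPA4L (chr4:128702976-128755228, plus strand), the other HSP110 genes, were highest in X453_1. HSPA4 had 42.8, 45.1 and 42.5 FPKM in X453_NC, 64.4, 64.3 and 67.6 FPKM in X453_1, and 56.4, 52.5 and 50.7 FPKM in X453_2. HSPA4L had 4.04, 4.75 and 4.56 FPKM in X453_NC, 6.13, 6.55 and 6.82 FPKM in X453_1, and 5.6, 5.78 and 5.13 FPKM in X453_2. For both genes X453_2 lay between the control and X453_1 with no overlap in the deposited FPKM. Their log2 fold changes were 0.58 ± 0.04 and 0.46 ± 0.06 for X453_1, and 0.29 ± 0.04 and 0.26 ± 0.06 for X453_2. In the direct comparison of X453_2 with X453_1, HSPA4 was -0.29 ± 0.04 and HSPA4L -0.21 ± 0.06, opposite in sign to HSPH1 at 0.79 ± 0.04. With the libraries scaled by their median ratio, HSPA4 was at -0.19, HSPA4L at -0.11 and HSPH1 at 0.89.

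BAG3 (chr10:121410882-121449939, plus strand) is a stress-inducible co-chaperone that links HSP70 to small heat-shock proteins and to selective autophagy. It had 17.1, 15.5 and 15.7 FPKM in X453_NC, 27.1, 27.6 and 26.1 FPKM in X453_1, and 34.0, 34.0 and 34.8 FPKM in X453_2. The groups did not overlap. The log2 fold change was 0.71 ± 0.04 for X453_1 and 1.05 ± 0.04 for X453_2, with 0.34 ± 0.04 between the knockdown groups.

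**Figure D3:**
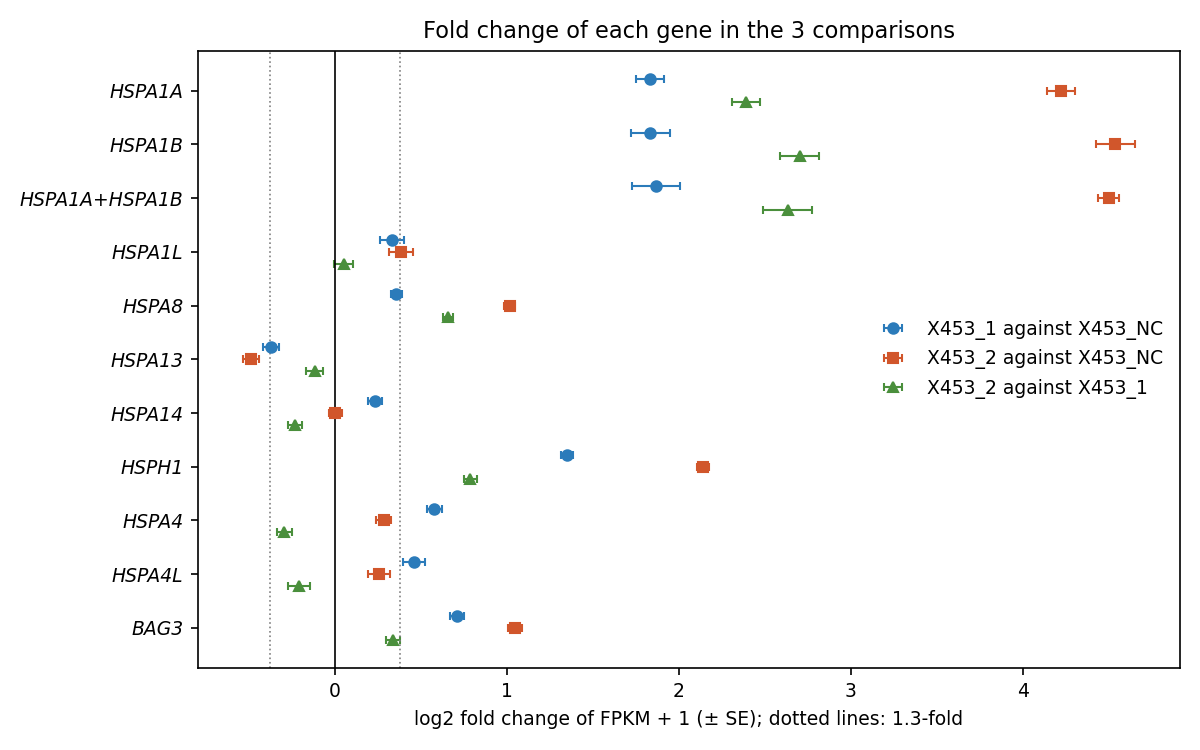
Log2 fold change of FPKM + 1 (x axis, points with SE) of each gene and of the summed HSPA1A and HSPA1B in the 3 comparisons, with dotted lines at 1.3-fold. HSPA1A, HSPA1B and HSPH1 lie farthest right in both knockdown groups, HSPA13 lies left of 0, and HSPA4, HSPA4L and HSPA14 lie left of 0 only in X453_2 against X453_1.

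A gene was called when its fold change reached 1.3 and its P, adjusted by the Benjamini-Hochberg method over the 12884 genes of the limma fit, did not exceed 0.05. Of the 10 genes, 9 entered the fit. Against the control, 6 of these 9 were called higher in X453_1 (HSPA1A, HSPA1B, HSPH1, HSPA4, HSPA4L and BAG3) and 0 lower, beside 11% of all tested genes called higher and 15.5% called lower. In X453_2, 5 were called higher (HSPA1A, HSPA1B, HSPA8, HSPH1 and BAG3) and HSPA13 was called lower, beside 10.9% and 23% of all tested genes. In X453_2 against X453_1, 4 were called higher (HSPA1A, HSPA1B, HSPA8 and HSPH1) and 0 lower, beside 2.06% and 5.32%. With a fold limit of 2, the members called higher numbered 3, 5 and 2 in the 3 comparisons, beside 0.799%, 1.65% and 0.194% of all tested genes, and 0 were called lower, beside 2.02%, 3.03% and 0.0854%. With no fold limit, 8, 7 and 5 were called higher, beside 32.1%, 26% and 10.2%, and 1, 1 and 3 lower, beside 32.3%, 44.8% and 33.9%. Nothing is read from these counts, since the genes were chosen with these contrasts known. The median log2 fold change of the 9 was 0.58, 1.02 and 0.34 in the 3 comparisons, beside 0.0032, -0.095 and -0.081 over all tested genes. Both knockdown comparisons share the control libraries. Scaling the libraries by their median ratio changed the split of all calls. Genes called higher then made up 46.8% of the calls in X453_2 against the control in place of 32.2%, and 62.0% in place of 27.97% in X453_2 against X453_1. After that scaling HSPA4 was also called higher in X453_2 against the control, and BAG3 in X453_2 against X453_1, so that 6 and 5 of the 9 were called higher. Of the 12884 tested genes, 1967 and 498 were then called higher in these comparisons, in place of 1406 and 266.

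The make-up of the summed HSP70 members differed between the groups. The sums here hold members only and leave out other genes of both families. Among those, HSPA5 had a mean of 164.2 FPKM in X453_NC, 272.65 in X453_1 and 480.1 in X453_2. In the same order HSPA9 had 104.5, 74.4 and 63.2 FPKM, and HYOU1, an HSP110 relative, had 40.3, 39.9 and 39.4 FPKM. The 6 HSP70 genes summed to 772.3 ± 17.0 FPKM in X453_NC, 1062.9 ± 17.5 FPKM in X453_1 and 2228.6 ± 48.6 FPKM in X453_2. HSPA1A and HSPA1B together held 4.43, 3.97 and 4.44% of that sum in the control libraries, 13.6, 11.2 and 10.2% in X453_1, and 32.3, 36.4 and 34.6% in X453_2. HSPA8 held 91.7 ± 0.24%, 85.4 ± 1.65% and 64.4 ± 1.99% in turn. These shares do not depend on the scaling of the libraries, and the groups did not overlap. Of the summed HSP110 level, HSPH1 held 29.5 ± 0.73% in X453_NC, 42.2 ± 0.81% in X453_1 and 60.9 ± 0.21% in X453_2. HSPH1 thus took the place of HSPA4 as the HSP110 member with the highest FPKM in X453_2. The order of these genes depends on the transcript length used for FPKM. The longest transcript listed has 24119 bases for HSPH1 and 3385 for HSPA4. HSP110 genes had 8.79 ± 0.03 FPKM per 100 FPKM of HSP70 genes in X453_NC, 11.7 ± 0.37 in X453_1 and 6.74 ± 0.22 in X453_2. BAG3 had 2.08 ± 0.14, 2.53 ± 0.07 and 1.54 ± 0.06 FPKM per 100 FPKM of HSP70 genes. Both ratios were thus above the control in X453_1 and below it in X453_2, without overlap.

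**Figure D4:**
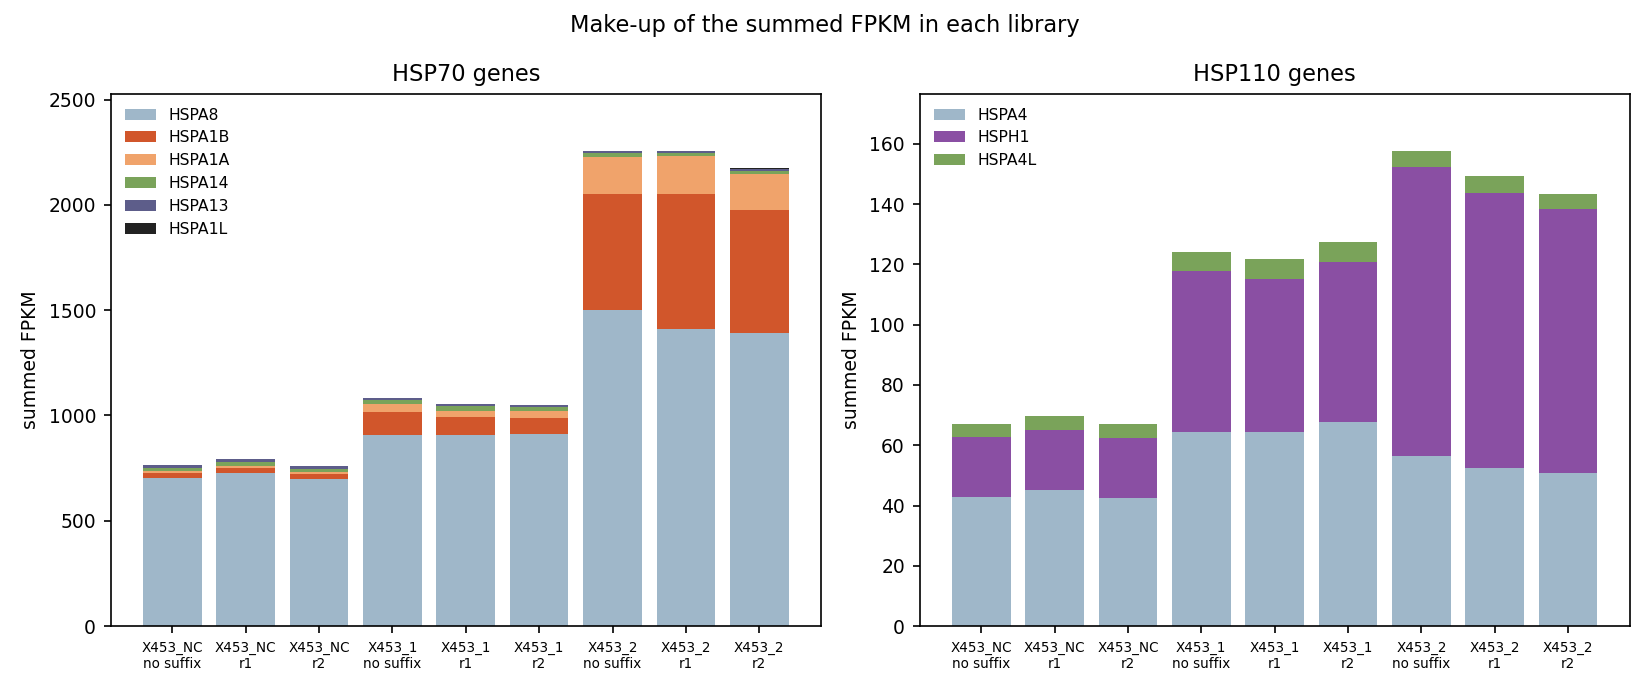
Summed FPKM (y axes, from 0) of the 6 HSP70 genes and of the 3 HSP110 genes in each of the 9 libraries, stacked by gene. On average the HSPA1A and HSPA1B segments are 4.28% of the HSP70 bar in X453_NC and 34.4% in X453_2, and the HSPH1 segment is 29.5% and 60.9% of the HSP110 bar.

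The order of the levels differed between the groups. In X453_NC the order from the highest mean was HSPA8, HSPA4, HSPA1B, HSPH1, HSPA14, BAG3, HSPA13, HSPA1A, HSPA4L and HSPA1L, and of neighbours in that order only HSPA14 and BAG3 overlapped. In X453_1 HSPA1B stood at rank 2 and HSPA1A at rank 5. In X453_2 they stood at ranks 2 and 3, after HSPA8. No neighbours overlapped in X453_1 or X453_2. Among the 17089 known genes of the table, HSPA1B had rank 2894 in X453_NC, 659 in X453_1 and 126 in X453_2, and HSPA1A had rank 6556, 2163 and 333. HSPA8 had rank 109, 92 and 66.

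Other genes of the HSP70 system were taken from 5 lists of 54 genes, of which 47 were tested. These lists were compiled with earlier results of these data known. The adjusted P values given for list genes are therefore a description of the limma fit and no independent support. In all, 16 were called higher and 5 lower in X453_1, 19 higher and 4 lower in X453_2, and 9 higher and 0 lower in X453_2 against X453_1. Of all tested genes, 11% were called higher and 15.5% lower in X453_1, and 10.9% and 23% in X453_2. In X453_2 against X453_1 the shares were 2.06% and 5.32%. The same shares belong beside the counts of each list below. The median log2 fold change of the list genes was 0.17, 0.23 and 0.07, beside 0.0032, -0.095 and -0.081 over all tested genes. Of 6 tested HSP70 and HSP110 genes outside the 10, 2 were called higher in X453_1 and 3 in X453_2, and 1 was lower in both. The latter, named after its values were seen, was HSPA9, the mitochondrial HSP70, at -0.48 ± 0.04 in X453_1 (adjusted P = 2.5e-06) and -0.72 ± 0.04 in X453_2 (adjusted P = 1.3e-07). HSPA5, the HSP70 of the endoplasmic reticulum also known as BiP, had 162.9 to 165.1 FPKM in X453_NC, 266.8 to 282.65 FPKM in X453_1 and 475.4 to 487.9 FPKM in X453_2. Its log2 fold change was 0.73 ± 0.03 for X453_1 (adjusted P = 4.8e-08) and 1.54 ± 0.03 for X453_2 (adjusted P = 3.4e-10). HSPA2, a further cytosolic HSP70, had 6.40 to 6.85 FPKM in X453_NC, 12.8 to 14.7 FPKM in X453_1 and 12.9 to 16.2 FPKM in X453_2. HSPA6, a strictly heat-inducible HSP70, had 0.10 to 0.16 FPKM in X453_NC, 0.28 to 0.40 FPKM in X453_1 and 3.34 to 3.47 FPKM in X453_2. It passed the filter only through X453_2, so no test of it is given, although the counts of calls for X453_2 include it. Against the control, its log2 fold change was 0.24 in X453_1 and 1.96 in X453_2 with 1 FPKM added, and 0.91 and 3.90 with 0.1 FPKM added. Between X453_2 and X453_1 it was 1.72 and 2.995. Its level corresponds to an estimated 6 to 10 fragments in each control library and 180 to 191 in each X453_2 library.

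Of the other nucleotide exchange factors and regulators, BAG5 was the 1 gene of 9 called in either knockdown group on the deposited scale, at 0.46 ± 0.04 in X453_1 (adjusted P = 8.5e-06) and 0.16 ± 0.04 in X453_2, where it was below the fold limit. After median-ratio scaling BAG6 (0.43) and GRPEL1 (0.40) were also called higher in X453_2, and without X453_NC r1 BAG1 was called lower in X453_1 (-0.39). Of 12 cytosolic J-domain and adaptor partners, 5 were called higher in each knockdown group, and 2 were called lower in X453_1 and 1 in X453_2. Those lower were STUB1 in both and DNAJB2, a J-domain protein named after its values were seen, in X453_1 at -0.40 ± 0.10 (adjusted P = 5.9e-03). The call of DNAJB2 was lost without X453_1 r2, at -0.32, and without X453_NC r2, at -0.38 and just under the fold limit. DNAJB1, the main heat-inducible J-domain partner of HSP70, had 65.3 to 67.4 FPKM in X453_NC, 181.4 to 192.45 FPKM in X453_1 and 621.6 to 695.7 FPKM in X453_2. Its log2 fold change was 1.47 ± 0.04 (adjusted P = 1.0e-08) and 3.27 ± 0.04 (adjusted P = 4.1e-11). DNAJB4, a relative of DNAJB1, had 4.17 to 4.68 FPKM, 7.85 to 8.27 FPKM and 12.5 to 13.85 FPKM in the same order. STIP1, the adaptor that joins HSP70 to HSP90, had 119.5 to 121.5 FPKM in X453_NC, 231.35 to 235.8 FPKM in X453_1 and 239.6 to 254.0 FPKM in X453_2. STUB1, the ubiquitin ligase CHIP that acts on HSP70 clients and also binds BAG3 complexes, fell by 0.78 ± 0.05 in X453_1 (adjusted P = 1.6e-06) and by 1.01 ± 0.05 in X453_2 (adjusted P = 1.7e-07) on the log2 scale.

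Of 17 tested genes in the list of other heat-shock responsive genes and factors, 8 were called higher in X453_1 and 11 in X453_2, with 2 and 1 called lower. HSP90AA1, the inducible cytosolic HSP90, had 353.2 to 373.15 FPKM in X453_NC, 812.9 to 824.6 FPKM in X453_1 and 956.1 to 1015.5 FPKM in X453_2. HSPE1, the mitochondrial co-chaperonin, had 77.0 to 83.0 FPKM, 139.7 to 153.1 FPKM and 166.15 to 170.2 FPKM in the same order. DEDD2, a death-effector-domain gene, had 24.6 to 27.9 FPKM, 36.2 to 39.5 FPKM and 58.8 to 65 FPKM. HSPA2, DNAJB4, STIP1, HSP90AA1, HSPE1 and DEDD2 were all called higher in both knockdown groups. HSF1, singled out after its values were seen as the factor that binds heat-shock elements, had 8.52 to 12.5 FPKM in X453_NC, 3.37 to 7.69 FPKM in X453_1 and 4.21 to 7.65 FPKM in X453_2. Its log2 fold change was -0.83 ± 0.25 (adjusted P = 0.015) and -0.78 ± 0.25 (adjusted P = 0.018). Both calls were lost without the X453_NC library with no suffix, at -0.70 (adjusted P = 0.060) and -0.65 (adjusted P = 0.070), and that in X453_2 also without the X453_2 library with no suffix, at -0.61 (adjusted P = 0.066). Of 4 tested binding partners of BAG3, 1 was called lower in X453_1 and 2 in X453_2, and 0 were called higher. AMOTL2, a Hippo pathway scaffold, fell by 0.38 ± 0.06 in X453_2 (adjusted P = 3.1e-04), just past the fold limit, which it missed after median-ratio scaling at -0.31 or without the X453_NC or X453_2 library with no suffix or X453_2 r1, at -0.34 to -0.37. It differed by -0.15 ± 0.06 in X453_1 (adjusted P = 0.051).

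**Figure D5:**
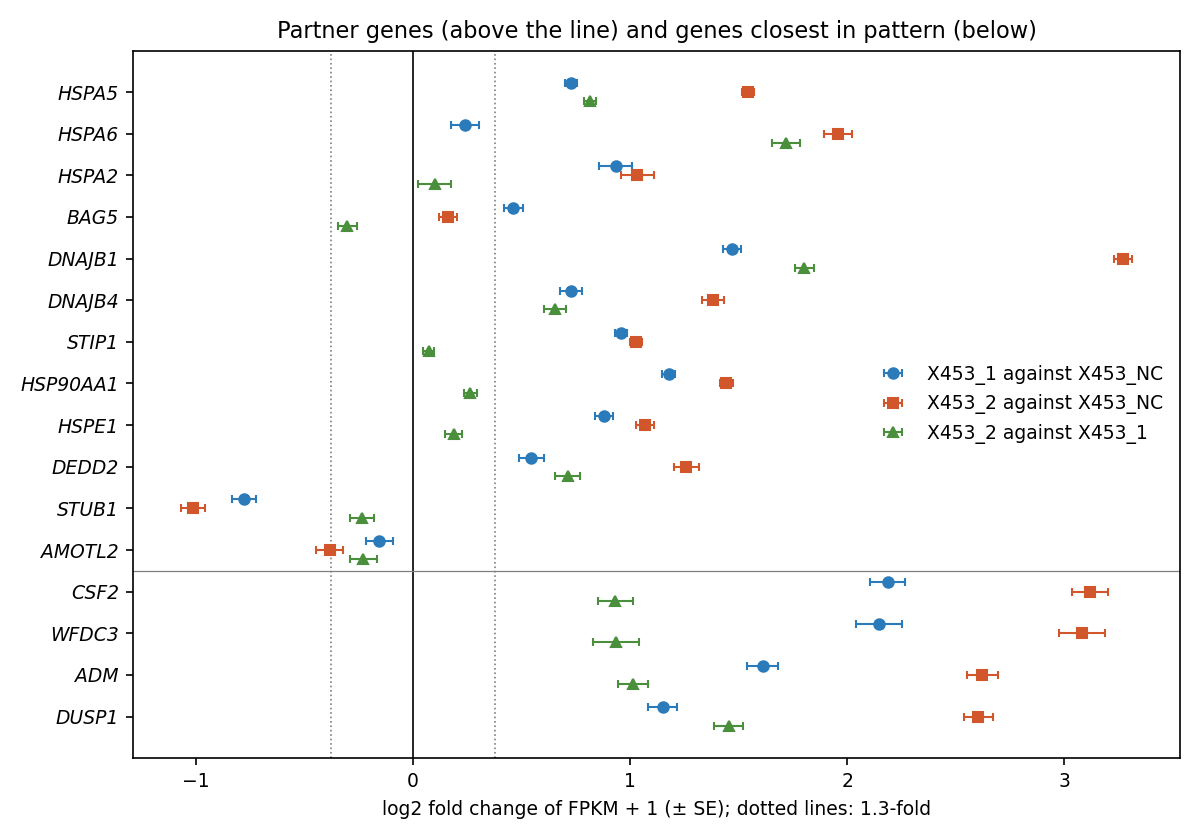
Log2 fold change of FPKM + 1 (x axis, points with SE) in the 3 comparisons for the named genes of the 5 lists, above the grey line, and for 4 further genes whose pattern lay closest to the summed HSPA1A and HSPA1B, below it. DNAJB1 reached 3.27 in X453_2, and STUB1 lay left of 0 in both knockdown groups.

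The genes with the pattern most like the summed HSPA1A and HSPA1B were ranked by the root mean square difference over the 9 libraries of log2(FPKM + 1) less its control mean. The 5 nearest known genes outside the 10 were DNAJB1 at 0.75, CSF2 at 0.82, WFDC3 at 0.85, ADM at 1.10 and DUSP1 at 1.17, beside a median of 2.87 over the tested known genes outside the 10. HSPH1 was at 1.40, BAG3 at 2.10, HSPA8 at 2.19 and HSPA13 at 3.16 by the same measure. CSF2, which encodes the cytokine GM-CSF, had 2.28 to 3.05 FPKM in X453_NC, 14.2 to 16.6 FPKM in X453_1 and 29.29 to 30.01 FPKM in X453_2. WFDC3 had 1.39 to 2.32 FPKM, 11.2 to 12.6 FPKM and 22.7 to 24.9 FPKM in the same order. ADM, the gene of the peptide hormone adrenomedullin, had 4.69 to 5.54 FPKM, 16.4 to 19.05 FPKM and 35.5 to 39.1 FPKM. DUSP1, an immediate early phosphatase of MAP kinases, had 7.22 to 8.46 FPKM, 18.0 to 19.7 FPKM and 50.5 to 58.0 FPKM. The summed HSPA1A and HSPA1B differed more between X453_2 and X453_1 (2.63 ± 0.14) than any of these 5, whose differences ranged from 0.93 for CSF2 to 1.80 for DNAJB1.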

How the data were processed

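RNA from 9 libraries of transfected MDA-MB-453 cells was sequenced on the BGISEQ-500 platform. The deposited table gives the authors' FPKM per gene and library, rounded to 2 decimals. Bowtie2 (version 2) and GRCh37.p13 are named in the submitters' processing notes, and the counting tool and its strand setting are not given in the sources used here. The FPKM columns occur 2 times and hold equal numbers; the first were read. The table also holds log2 ratios, P and Q values between pooled groups, which were not used. A further 4 rows had no values and were left out. Groups came from the labels.

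Values were tested with limma 3.58.1 (trend) in R 4.3.3 on log2(FPKM + 1). The fit took in 9 libraries and the 12884 genes whose mean reached 1 FPKM, and the scripts were tested on simulated data. Since nothing says that libraries came from separate cultures, P values measure only the spread between these libraries, which may be technical. Depth was estimated from FPKM steps of short genes with 1 transcript, and such estimates cover counting error only. The members and lists were chosen with earlier results of these data known, so members carry no test. For the same reason the adjusted P values of list genes are descriptive only. The genes named were all members, up to 3 called genes of each list with the largest mean change over both knockdown comparisons, the 5 known genes nearest in pattern to the HSPA1A and HSPA1B sum, and the predicted HSP70 loci. Promoters came from RefSeq (GRCh38.p14) and transcripts from GENCODE v29. Alternatives were 0.1 FPKM added before the logarithm, no filter or a mean of 5 FPKM, median-ratio scaling, only the 2 groups compared, a replicate block, each library left out, unadjusted P, a fold limit of 2 or none, and 3 heat-shock units. The level of the knockdown target and 1 listed item are not reported here.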

Additional observations from a re-analysis of the deposited data

Results flagged for a closer look

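In the limma fit, 4 of the partner genes named by the rule, HSPA6 left out, were called higher in X453_2 than in X453_1. Each passed the 1.3-fold limit, with all X453_2 libraries above all X453_1 libraries. Of all tested genes, 2.06% were called higher in this comparison and 5.32% lower. Nothing is read from the count, since the rule took called genes with the largest change over both knockdown comparisons. The log2 difference was 1.80 for DNAJB1 (adjusted P = 2.5e-08), 0.81 for HSPA5 (adjusted P = 2.6e-07), 0.71 for DEDD2 (adjusted P = 2.6e-05) and 0.65 for DNAJB4 (adjusted P = 2.1e-05). Below that limit, BAG5 was at -0.30 (adjusted P = 5.1e-04), STUB1 at -0.24 (adjusted P = 6.6e-03), AMOTL2 at -0.23 (adjusted P = 0.014), HSP90AA1 at 0.26 (adjusted P = 1.7e-04) and HSPE1 at 0.19 (adjusted P = 5.0e-03), and HSPA9, named after its values were seen, was at -0.23 (adjusted P = 9.2e-04). Median-ratio scaling put STUB1 at -0.14 (adjusted P = 0.089) and AMOTL2 at -0.15 (adjusted P = 0.076) in the limma fit. STIP1 was at 0.07 (adjusted P = 0.056) on the deposited scale and at 0.18 (adjusted P = 1.2e-03) after that scaling. HSPA2 was at 0.10 (adjusted P = 0.31) on the deposited scale.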

How the results depend on the processing

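Of 1158 fold changes recomputed under the alternatives, 0 of those called reversed in sign. Many of the 1158 could not change, so they do not bear on this. The filters, only the 2 groups compared, the replicate block and a library left out of the group not compared leave a fold change as it was. The shares of all tested genes at each fold limit stand beside the members' counts above. With a fold limit of 2, the members called higher numbered 3 in X453_1 and 2 in X453_2 against X453_1, and 0 were called lower in X453_2. The list genes then numbered 2 higher and 0 lower in X453_1, 9 higher and 1 lower in X453_2, and 2 higher in X453_2 against X453_1. With no fold limit, 1 member was lower in X453_1 and 3 in X453_2 against X453_1, and list genes numbered 26 higher and 11 lower, 29 higher and 8 lower, and 19 higher and 7 lower in the 3 comparisons. HSPA13, the member at the limit in X453_1, made the count of members called lower 1 with 0.1 FPKM added and 0 to 1 with each library left out (1 without X453_1 r2 or without X453_NC no suffix). The list genes called lower in X453_2 ranged from 2 to 4 in the same way, with 2 without X453_2 no suffix or without X453_NC no suffix. Median-ratio scaling gave the HSPA1A and HSPA1B sum 4.602 in X453_2. With 3 heat-shock units required, 1 promoter matched in place of 4.

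In the fit with a replicate block, 6 members were called higher in X453_1, 5 in X453_2 and 4 in X453_2 against X453_1, the same counts as without it. The labels share only a name. Deviations of same-labelled libraries correlated at -0.24 to 0.10, and 3 of 18 comparisons were best with their own label. Depth limits HSPA1L and HSPA6, which rest on an estimated 20 to 33 and 6 to 10 fragments per control library.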
